A study of Mus musculus with 22 samples.

Results

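The 10 genes described here encode the subunits of the AMPA and NMDA types of glutamate receptor: Gria1, Gria2, Gria3, Gria4, Grin1, Grin2a, Grin2b, Grin2c, Grin2d and Grin3a. They were chosen by name from the 21995 genes of the deposited tables, by matching their Ensembl identifiers to symbols. The choice was made with earlier results of these data known, so the genes were not tested as a set. All 10 were detected well above the filter on low counts in every group. Their mRNA levels were compared between young and old wild-type mice and, separately, between SOD1-G93A mice and wild-type controls.

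Glutamate is the main excitatory transmitter of the spinal cord. AMPA receptors, tetramers of the GluA1 to GluA4 proteins (from Gria1 to Gria4), carry the fast synaptic current, and a channel that contains edited GluA2 passes little calcium. NMDA receptors typically pass calcium only when glutamate and a co-agonist, glycine or D-serine, are bound and the membrane is depolarized. They always hold the obligatory GluN1 subunit (Grin1), together with GluN2 subunits (Grin2a to Grin2d), which bind glutamate and set the kinetics, or GluN3 subunits (Grin3a), which bind glycine and lower calcium entry. Calcium entry through these channels has long been studied in motor neuron disease as a route to excitotoxic injury.

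The aging comparison held whole spinal cords of 8 young mice at 3 to 4 months and 8 old mice at 18 to 24 months, all wild-type males on C57BL/6, with libraries from the KAPA HyperPrep kit of Roche. The ALS comparison held 3 SOD1-G93A mice and 3 wild-type controls on C57BL/6, labelled 5 to 6 months and described in the study's methods as 5 months, with libraries from the Illumina TruSeq kit. SOD1-G93A mice of this high-copy line carry many copies of a mutant human SOD1 gene in all tissues, beside their own mouse Sod1, and develop paralysis, so the transgene is not restricted to neurons. Each ALS group had 2 females and 1 male per the methods, and the sex of single libraries is not in the labels and was not a covariate. One library was made per mouse, and libraries are numbered here in the order of the deposited columns. Kit and experiment coincide, so levels were compared only within an experiment.

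Young libraries held 5078092 to 9358055 counts and old libraries 5664869 to 9145600, with 10693060 to 13219797 in controls and 9675610 to 11872431 in SOD1-G93A. At this depth 3 counts correspond to at most 0.591 CPM (counts relative to library size) before scaling. The lowest value of any member in any library was 13.2 CPM on the TMM scale used throughout. The reads assigned to Sod1, which can include reads of the human transgene, were at 156 to 168 CPM in controls and 296 to 335 CPM in SOD1-G93A, higher in every SOD1-G93A library than in any control. All 10 pan-neuronal and all 8 spinal Hox genes listed were detected, and none of 4 skeletal muscle markers passed the filter on low counts. SOD1-G93A library 2 lay nearest to the controls in summed pan-neuronal, inhibitory neuron, microglia and astrocyte markers. Its pan-neuronal sum was 6600 CPM against 4160 and 4700 CPM in the other SOD1-G93A libraries and 9130 to 9580 CPM in controls. In motor neuron markers it was not nearest, at 143 CPM against 156 CPM in library 1 and 141 CPM in library 3. The member results that changed without library 2 are given as such.

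Levels of different genes are given here as FPKM, recovered from the deposited log2(FPKM + 1), since CPM does not correct for length. By FPKM, Grin1 was the most abundant member in every group. An order between genes depends on the transcript lengths used, and the orders given here hold for the deposited FPKM. In young mice Grin1 stood at 88.9 ± 3.73 FPKM (SD, n = 8), above the sum of Grin2a to Grin2d, 22 ± 1.12 FPKM. The AMPA subunits followed, with Gria4 at 39.9 ± 1.32, Gria2 at 30.8 ± 2.04, Gria1 at 29.5 ± 1.64 and Gria3 at 20.4 ± 1.2 FPKM. Lowest were Grin3a at 10.2 ± 0.591, Grin2d at 9.31 ± 0.552, Grin2c at 5.8 ± 0.529, Grin2a at 4.18 ± 0.363 and Grin2b at 2.7 ± 0.292 FPKM. Of these neighbours, Gria2 and Gria1 overlapped between libraries, as did Grin3a and Grin2d, and the other steps did not. The order thus put the adult spinal cord's Grin2d and Grin2c above Grin2a and Grin2b.

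The FPKM order of the AMPA subunits was not the same in all groups. In old mice Gria1, at 31.8 ± 3.19 FPKM (SD, n = 8), lay above Gria2, at 22 ± 2.01 FPKM, with no overlap between libraries, whereas in young mice they overlapped. Dividing CPM by exon-union length placed Gria1 above Gria2 in young mice too, so this order depends on the length used. In controls of the ALS experiment Gria4 stood at 44.4 ± 5.67, Gria2 at 39.9 ± 4.74, Gria1 at 25.1 ± 1.04 and Gria3 at 24.7 ± 1.1 FPKM (SD, n = 3), with overlap between Gria4 and Gria2 and between Gria1 and Gria3. In SOD1-G93A mice the order was Gria2 at 30.9 ± 7.23, Gria1 at 27.5 ± 2.2, Gria4 at 24.1 ± 6.76 and Gria3 at 16.1 ± 3.44 FPKM (SD, n = 3), and each of these neighbours overlapped. Grin1 was again highest, at 102 ± 8.64 FPKM in controls and 72.5 ± 13.2 FPKM in SOD1-G93A.

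In old spinal cord 6 of the 10 subunit genes were lower than in young and none was higher, at an adjusted p-value under 0.05 (edgeR quasi-likelihood test, adjusted over 13647 genes). None was higher at an unadjusted p-value under 0.05 or by DESeq2 either. Of all genes tested, 12.9% were lower, 13.5% higher and 26.4% either by the same rule. The called members fell by 15.4% at the least, in Gria4, and none reached a log2 fold change beyond 1, which 0.044% of genes did downward and 2.18% upward. The median log2 fold change was -0.27 over the members and 0 over all genes. In whole tissue, fewer cells of a type and less mRNA per cell cannot be told apart.

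**Figure D1:**
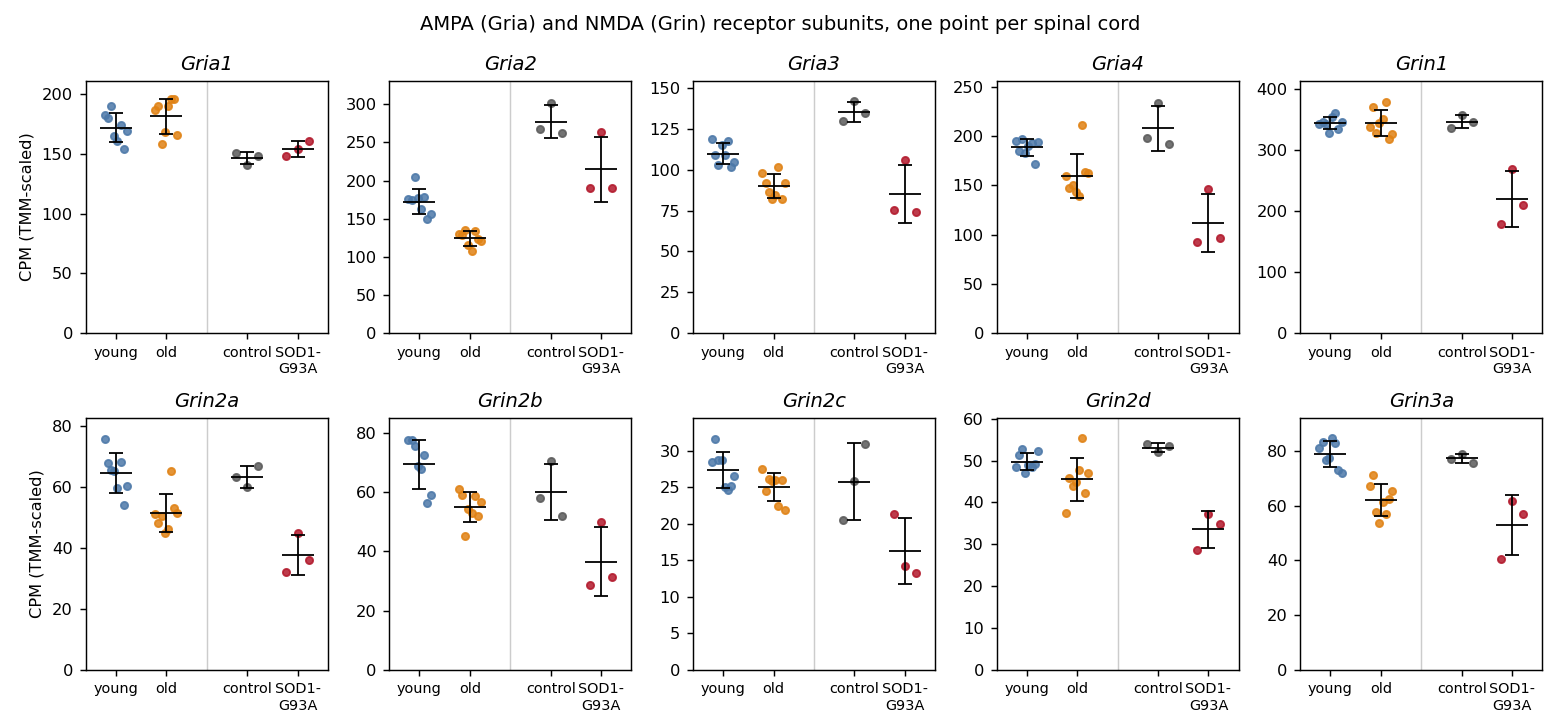
TMM-scaled CPM (linear axis from 0) of the 10 subunit genes, 1 point per library, in 8 young, 8 old, 3 control and 3 SOD1-G93A mice. Horizontal lines are group means and error bars are SD, and the grey line separates the 2 experiments. Gria2 and Grin3a lie lower in all 8 old libraries than in any young library, and Gria1 overlaps between groups in both experiments.

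Among the AMPA subunits Gria2 fell most. Gria2 (ENSMUSG00000033981, GRCm38 chromosome 3 from 80681450 to 80802835, minus strand) encodes GluA2, the subunit that sets the calcium permeability of the channel. Its level ran from 150 to 205 CPM in young libraries with a median of 175, and from 107 to 135 CPM in old libraries with a median of 125. All 8 old libraries lay below every young one, a pattern found for 1.66% of genes tested, with 3.66% in the opposite direction. It fell by 27.9%, from 172 ± 16.9 to 124 ± 9.75 CPM (SD, n = 8), with a log2 fold change of -0.47 (95% confidence interval -0.59 to -0.35, adjusted p = 2.12e-06 from edgeR). In contrast Grin1 had the same mean level in both groups. Grin1 (ENSMUSG00000026959, chromosome 2 from 25291181 to 25319187, minus strand) was at 328 to 360 CPM in young libraries with a median of 344 and at 318 to 379 CPM in old libraries with a median of 341. Its log2 fold change was 0 with a 95% confidence interval from -0.08 to 0.08 (adjusted p = 0.999). Exons of Grin1 overlap the antisense gene Grin1os, and exons of Grin2b, Grin2c and Grin2d overlap predicted genes on the opposite strand, so that without stated strand their reads cannot be told apart.

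The 250 bases upstream of the annotated starts of these 2 genes, which gave the largest decrease and the smallest difference with age, are shown for reference, 5′ to 3′ on the gene's strand (RefSeq, GRCm38.p6). The first lies at chr3:80802836-80803085 and the second at chr2:25319188-25319437, both on the minus strand. Capitals mark a match, on the opposite strand, to the core of RE1, the element bound by the neuronal gene repressor REST, with any base allowed at its 2 central positions.
Gria2: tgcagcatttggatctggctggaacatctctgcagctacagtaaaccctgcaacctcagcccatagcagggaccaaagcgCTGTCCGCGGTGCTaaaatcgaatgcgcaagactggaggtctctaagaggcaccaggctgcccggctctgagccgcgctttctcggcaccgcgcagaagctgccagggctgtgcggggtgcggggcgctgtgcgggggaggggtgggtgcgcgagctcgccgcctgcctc
Grin1: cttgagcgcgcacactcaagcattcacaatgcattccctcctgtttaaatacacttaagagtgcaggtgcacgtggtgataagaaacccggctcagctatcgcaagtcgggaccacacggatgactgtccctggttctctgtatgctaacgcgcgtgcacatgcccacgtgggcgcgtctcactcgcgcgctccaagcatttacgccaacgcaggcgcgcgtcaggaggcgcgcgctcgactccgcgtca
The match lay 170 to 157 bases before the Gria2 start, and 15 of 32851 promoters of the same window (0.0457%) held one on either strand. Only 5 of the 10 members matched the promoter table, Gria2, Gria4, Grin1, Grin2c and Grin2d, and among them Gria2 alone held the RE1 core. The GC box GGGCGG, present on either strand in 32.7% of promoters, was found in Grin2c only, and the cAMP response element TGACGTCA, present in 1.55%, in none of the 5. The motifs do not overlap one another, were chosen after the sequences were seen, and are descriptions of letters in a window. The Gria2 window is 64.8% GC with 19 CpG and the Grin1 window 58.8% GC with 27 CpG, against medians of 52.4% and 6 over all promoters.

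Gria3 and Gria4 also fell with age. Gria3 (ENSMUSG00000001986, chromosome X from 41400854 to 41678601, plus strand) encodes GluA3 and went from 102 to 119 CPM in young libraries with a median of 109 to between 82.3 and 102 CPM in old libraries with a median of 89.1. Only 1 of the 8 old libraries reached the young range, and the log2 fold change was -0.29 (95% confidence interval -0.4 to -0.19, adjusted p = 0.000179). Gria4 (ENSMUSG00000025892, chromosome 9 from 4417896 to 4796234, minus strand) encodes GluA4, a fast-gating subunit. It ran from 172 to 197 CPM in young libraries with a median of 192, and from 139 to 211 CPM in old libraries with a median of 155. Here 7 old libraries lay below all young ones and 1, old library 6, lay above them all, and the log2 fold change was -0.24 (95% confidence interval -0.37 to -0.11, adjusted p = 0.00703). Without old library 6 it was -0.31 (adjusted p = 8.47e-06).

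Gria1 was the exception among the AMPA subunits. Gria1 (ENSMUSG00000020524, chromosome 11 from 57011387 to 57330244, plus strand) encodes GluA1, which is inserted at synapses during plasticity. It ran from 154 to 190 CPM in young libraries with a median of 171, and from 158 to 196 CPM in old libraries with a median of 189. The groups overlapped, and the log2 fold change of 0.08 had a 95% confidence interval from -0.03 to 0.19 (adjusted p = 0.29).

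Of the GluN2 genes, Grin2a and Grin2b fell with age. Grin2a (ENSMUSG00000059003, chromosome 16 from 9567898 to 9995560, minus strand) encodes GluN2A, the subunit of fast-decaying NMDA currents. It went from 54.1 to 75.9 CPM in young libraries with a median of 65.6 to between 45.0 and 65.4 CPM in old libraries with a median of 50.8. Only old library 6, at 65.4 CPM, reached the young range, and the log2 fold change was -0.34 (95% confidence interval -0.48 to -0.19, adjusted p = 0.00119). Grin2b (ENSMUSG00000030209, chromosome 6 from 135713233 to 136173511, minus strand) encodes GluN2B, the subunit of slow currents that dominates early in life. It went from 56.3 to 77.7 CPM in young libraries with a median of 70.7 to between 45.1 and 61.1 CPM in old libraries with a median of 55.5. The ranges overlapped, with 4 of 8 old libraries below every young one, and the log2 fold change was -0.34 (95% confidence interval -0.49 to -0.19, adjusted p = 0.00104). By limma on the deposited log2(FPKM + 1) values the Grin2b difference was -0.10 (adjusted p = 0.517). The added 1 shrinks differences at low FPKM, so this size is not on the scale of the log2 fold change. Grin2b FPKM itself was 2.7 ± 0.292 in young and 2.49 ± 0.576 in old mice (SD, n = 8), so the Grin2b result depended on the table used.

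Grin2c and Grin2d were not called in old mice. Grin2c (ENSMUSG00000020734, chromosome 11 from 115249169 to 115267243, minus strand) encodes GluN2C, known from cerebellar granule cells and also made by astrocytes. Its range was 24.6 to 31.6 CPM in young and 21.9 to 27.5 CPM in old libraries (log2 fold change -0.13, 95% confidence interval -0.26 to 0.01, adjusted p = 0.173). Grin2d (ENSMUSG00000002771, chromosome 7 from 45831883 to 45878378, minus strand) encodes GluN2D, the subunit of the slowest decay, found in interneurons. Its range was 47.0 to 52.7 CPM in young and 37.4 to 55.5 CPM in old libraries (log2 fold change -0.13, 95% confidence interval -0.26 to -0.01, adjusted p = 0.112). Leaving out old library 6, its highest old value, gave -0.18 (adjusted p = 0.0129). These intervals do not show that either gene was unchanged.

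The GluN3 subunit gene Grin3a fell clearly. Grin3a (ENSMUSG00000039579, chromosome 4 from 49661611 to 49845744, minus strand) encodes GluN3A, which reduces the calcium permeability of NMDA receptors. It ran from 71.9 to 84.8 CPM in young libraries with a median of 79.5, and from 53.8 to 71.2 CPM in old libraries with a median of 62.0. With Gria2 it was 1 of 2 members whose groups did not overlap, and it had a log2 fold change of -0.35 (95% confidence interval -0.47 to -0.23, adjusted p = 6.16e-05).

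Pan-neuronal markers moved in both directions with age. Of 10 such markers 3 were lower and 1 was higher, with a median log2 fold change of -0.08, and their summed level was 8070 to 8860 CPM in young and 7300 to 9270 CPM in old libraries. Map2, a dendritic microtubule protein, was lower (log2 fold change -0.30, adjusted p = 0.000633), as was the neurofilament gene Nefl (-0.21, adjusted p = 0.00165), whereas the neuronal tubulin gene Tubb3 was higher (0.13, adjusted p = 0.0178). None of the 10 markers was at 0. Inhibitory neuron markers were lower in 3 of 6, including Gad2, a GABA-synthesizing enzyme (-0.34, adjusted p = 0.00343), with summed levels of 964 to 1060 CPM in young and 809 to 1010 CPM in old libraries. Motor neuron markers were lower in 1 of 8, with sums of 263 to 316 and 251 to 314 CPM. With libraries scaled to the geometric mean of the pan-neuronal markers, a setting added after the data were seen, 6 members were called lower, Gria2 had a log2 fold change of -0.39, and Gria1 was called higher at 0.16 (adjusted p = 0.0399). That setting moved the median of all genes up by 0.079 and called 677 of 13647 genes lower and 2632 higher. Microglia markers were higher in 6 of 7, at summed levels of 307 to 341 CPM in young and 473 to 787 CPM in old libraries, and astrocyte markers were higher in 4 and lower in 1 of 7, at 6420 to 7080 and 7450 to 8230 CPM. The part of these glial shifts in the subunit results was not tested.

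In SOD1-G93A spinal cord 8 of the 10 subunit genes were lower than in controls and none was higher (adjusted p under 0.05 by edgeR over 14386 genes). No member was higher by DESeq2 or at an unadjusted p-value under 0.05. Of all genes tested, 15.5% were lower, 18.4% higher and 33.9% either by this rule. Among the called members Grin3a fell by 31.5%, the least, and Gria4 fell by 46.3%, the most, with Gria3, Grin1, Grin2a, Grin2b, Grin2c and Grin2d between them, whereas Gria1 and Gria2 were not called. In 7 members every SOD1-G93A library lay below every control, a pattern found for 24.7% of genes tested, with 25.7% in the opposite direction. The median log2 fold change was -0.66 over the members and 0 over all genes, and no member reached a log2 fold change beyond 1, which 1.2% of genes did downward and 8.5% upward. Without SOD1-G93A library 2, Gria4 was at -1.13 (adjusted p = 1.5e-05) and Grin2b at -1.0 (adjusted p = 0.000196). Without SOD1-G93A library 3 calls were weaker, with edgeR adjusted p-values of 0.0352 for Gria4, 0.0407 for Gria3 and 0.0472 for Grin1.

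Gria4 changed most. Its control libraries held 198, 234 and 192 CPM and its SOD1-G93A libraries 92.7, 146 and 96.3 CPM. SOD1-G93A library 2 was the highest of its group and still below every control, and the log2 fold change was -0.90 (standard error 0.17, 95% confidence interval -1.29 to -0.51, adjusted p = 0.00579). Gria3 held 130, 142 and 135 CPM in controls and 75.3, 106 and 74.3 CPM in SOD1-G93A, without overlap (log2 fold change -0.68, standard error 0.14, adjusted p = 0.00709). Both were called with each of the 6 libraries left out in turn.

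Gria2, the member with the firmest decrease in aging, was not called here. Controls were at 267, 302 and 262 CPM and SOD1-G93A libraries at 190, 264 and 190 CPM. Libraries 1 and 3 lay below every control, library 2 fell within the control range, and the log2 fold change was -0.37 (95% confidence interval -0.68 to -0.05, adjusted p = 0.0718). Gria2 was called without library 2 (-0.54, adjusted p = 6e-04), by DESeq2 (-0.37, adjusted p = 0.0402) and in one fit of all 22 libraries (-0.40, adjusted p = 0.00541). For Gria1 the controls held 151, 141 and 148 CPM and the SOD1-G93A libraries 148, 154 and 161 CPM, with overlap. Its log2 fold change was 0.07 with a 95% confidence interval from -0.11 to 0.26 (adjusted p = 0.516), an interval that does not reach the estimates for Gria3 and Gria4.

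**Figure D2:**
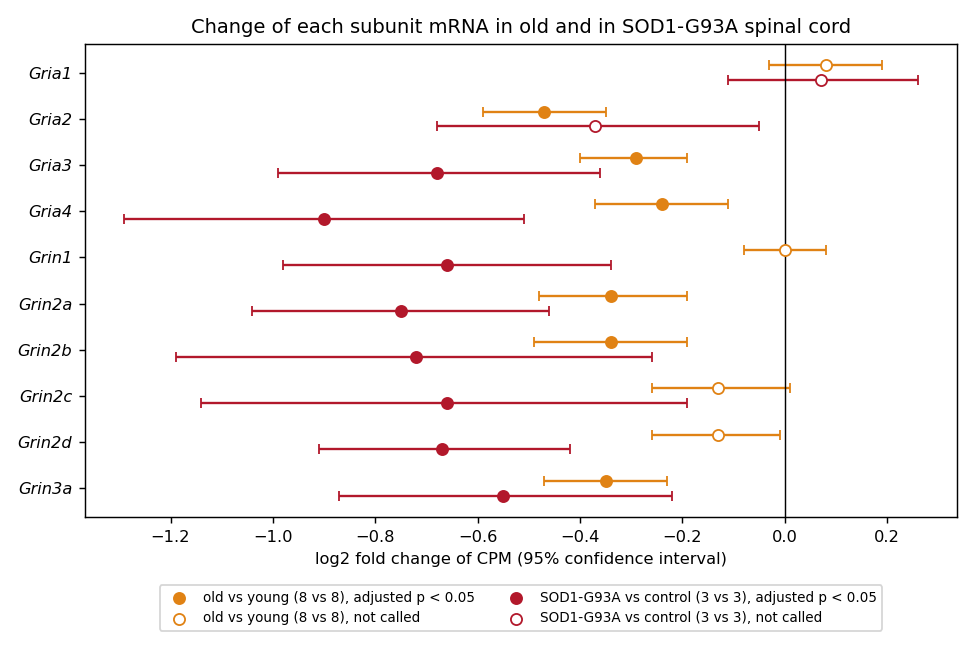
Log2 fold change of each subunit mRNA with its 95% confidence interval, in old against young mice (8 against 8, orange) and SOD1-G93A against control mice (3 against 3, red). Filled points have an adjusted p-value under 0.05 (edgeR). Gria1 lies near 0 in both comparisons, and Grin1 lies at 0 in aging and at -0.66 in SOD1-G93A.

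Grin1, level with age, was lower in SOD1-G93A mice. The controls held 336, 357 and 346 CPM and the SOD1-G93A libraries 179, 269 and 210 CPM. The groups did not overlap, and the obligatory NMDA subunit mRNA had a log2 fold change of -0.66 (standard error 0.14, 95% confidence interval -0.98 to -0.34, adjusted p = 0.00838).

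All 4 GluN2 genes were lower in SOD1-G93A mice. Grin2d had the smallest p-value among the members, with 54.0, 52.0 and 53.4 CPM in controls and 28.6, 37.3 and 34.8 CPM in SOD1-G93A (log2 fold change -0.67, 95% confidence interval -0.91 to -0.42, adjusted p = 0.00315). Grin2a held 63.2, 59.9 and 67.1 CPM against 32.2, 45.0 and 36.1 CPM (log2 fold change -0.75, adjusted p = 0.00335). In both genes the groups were clearly apart, and both were called with each library left out in turn. Grin2b held 57.9, 70.6 and 52.1 CPM in controls and 28.6, 49.8 and 31.3 CPM in SOD1-G93A (log2 fold change -0.72, adjusted p = 0.0247). Grin2c held 20.5, 25.9 and 31.0 CPM in controls and 21.4, 14.2 and 13.2 CPM in SOD1-G93A (log2 fold change -0.66, adjusted p = 0.0383). Library 1 of Grin2c lay inside the control range, and unlike the other lowered members library 2 was not its highest.

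Grin3a was lower as well, at 77.3, 79.0 and 75.8 CPM in controls and 40.5, 61.6 and 57.0 CPM in SOD1-G93A (log2 fold change -0.55, 95% confidence interval -0.87 to -0.22, adjusted p = 0.0181). The controls spread over a few CPM only, and the SOD1-G93A libraries all lay under them. The calls of Grin2b, Grin2c and Grin3a were the least firm, since each was lost in 4 of the 6 fits that left out 1 library, with adjusted p-values up to 0.107, 0.148 and 0.0636. The count of lower members was 5 without control library 2, 5 without SOD1-G93A library 3, and 8 without SOD1-G93A library 2, where Gria2 was called and Grin2c was not (-0.57, adjusted p = 0.0531). With limma on the log2(FPKM + 1) values it was 5, with Grin2b, Grin2c and Grin3a not called.

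Neuronal and glial markers moved with these decreases. Of 10 pan-neuronal markers 9 were lower in SOD1-G93A mice, with a median log2 fold change of -0.67, none at 0, and summed levels of 9130 to 9580 CPM in controls and 4160 to 6600 CPM in SOD1-G93A. Motor neuron markers were lower in 6 of 8, with sums of 287 to 322 and 141 to 156 CPM, and inhibitory neuron markers in 4 of 6, with sums of 947 to 995 and 468 to 806 CPM. Excitatory interneuron markers were lower in 1 of 6, the vesicular glutamate transporter Slc17a6 (log2 fold change -0.82, adjusted p = 0.0284). Microglia markers were higher in 5 of 7, at 316 to 381 CPM in controls and 1160 to 2090 CPM in SOD1-G93A, and astrocyte markers in 5 of 7, at 6030 to 6640 and 11600 to 18100 CPM. Library 2, the highest of its group in 8 of the 10 members, also had the highest pan-neuronal sum and the lowest microglia and astrocyte sums of its group. Its motor neuron sum was not the highest, at 143 CPM against 156 CPM in library 1. The part of the glial shifts in the subunit results was not tested.

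Relative to the pan-neuronal markers no subunit was called lower, and few genes of any kind were. With libraries scaled to the geometric mean of these 10 markers, a setting added after the data were seen that moved the median of all genes up by 0.766 on the log2 scale, 0 members were called lower and 2 higher, Gria1 at 0.84 (adjusted p = 0.003) and Gria2 at 0.37 (adjusted p = 0.0296). The other 8 members lay between -0.17 (Gria4, adjusted p = 0.272) and 0.19 (Grin3a, adjusted p = 0.284) on that scale. Of the 14386 genes tested, 55 were called lower and 10774 higher with this scaling. The count of 0 lower members is thus not particular to the subunits.

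The difference between the 2 effects was tested directly as the SOD1-G93A effect minus the age effect, in one edgeR fit of all 22 libraries. It was called in 6 of the 10 members, all with the more negative change in SOD1-G93A, compared with 25.8% of 14502 genes in either direction. Of those genes, 2063 had the more negative change in SOD1-G93A and 1682 the opposite. Grin1 differed most firmly, by -0.69 (standard error 0.11, adjusted p = 8.06e-05), followed by Grin2d by -0.56 (adjusted p = 0.00104) and Gria4 by -0.68 (adjusted p = 0.00218). Those differences were called with each of the 22 libraries left out in turn. The differences of Gria3 (-0.41, adjusted p = 0.0132), Grin2c (-0.57, adjusted p = 0.0173) and Grin2a (-0.44, adjusted p = 0.0239) were lost in 2, 2 and 4 of those fits. For Gria1 (-0.03, adjusted p = 0.853), Gria2 (0.08, adjusted p = 0.719), Grin2b (-0.41, adjusted p = 0.0954) and Grin3a (-0.22, adjusted p = 0.214) no difference was called, although without SOD1-G93A library 2 it was for Grin2b (-0.71, adjusted p = 0.000949) and Grin3a (-0.36, adjusted p = 0.0347). The pan-neuronal markers had median log2 fold changes of -0.08 in aging and -0.67 in SOD1-G93A. Whether the subunits differ from neuronal genes in general in this respect was not tested. Age, sex and kit differ between the 2 experiments along with genotype, and their parts cannot be told apart.

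The mix of AMPA subunit mRNAs shifted toward Gria1 in both comparisons. Its share of the summed Gria1 to Gria4 FPKM was 23.3% to 25.3% in young libraries and 27.4% to 33.9% in old libraries, with no overlap. It was 16.4% to 20.1% in control libraries and 23.1% to 32.2% in SOD1-G93A libraries (n = 3 each), again apart. These shares are descriptions with no test, and the summed level itself was lower, at 104 ± 5.56 FPKM in old against 121 ± 4.17 in young (SD, n = 8) and 98.7 ± 17.7 in SOD1-G93A against 134 ± 10.3 in controls (SD, n = 3).

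The subunits with a lower share were not the same. With age the Gria2 share went from 25.5% ± 1.15 to 21.2% ± 1.63 (SD, n = 8), with no overlap between 23.9% to 27.7% and 18.1% to 23.4%, and the Gria4 share was 33.1% ± 0.842 and 32.3% ± 2.63. In SOD1-G93A the Gria4 share was 24.2% ± 2.36 against 33.0% ± 1.71 in controls (SD, n = 3), without overlap, and the Gria2 share was 31.1% ± 1.73 against 29.7% ± 1.23. The Gria3 share was also lower in SOD1-G93A, at 15.6% to 16.9% against 17.7% to 19.1% in controls without overlap, and with age it overlapped, at 14.8% to 18.2% in young and 14.4% to 16.9% in old libraries. Dividing CPM by exon-union length in place of FPKM placed Gria2 lower, at 13.7% in young and 11.1% in old, and Gria1 higher, at 35.3% and 41.5%, so the level of a share depends on the transcript length used while these directions were kept.

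**Figure D3:**
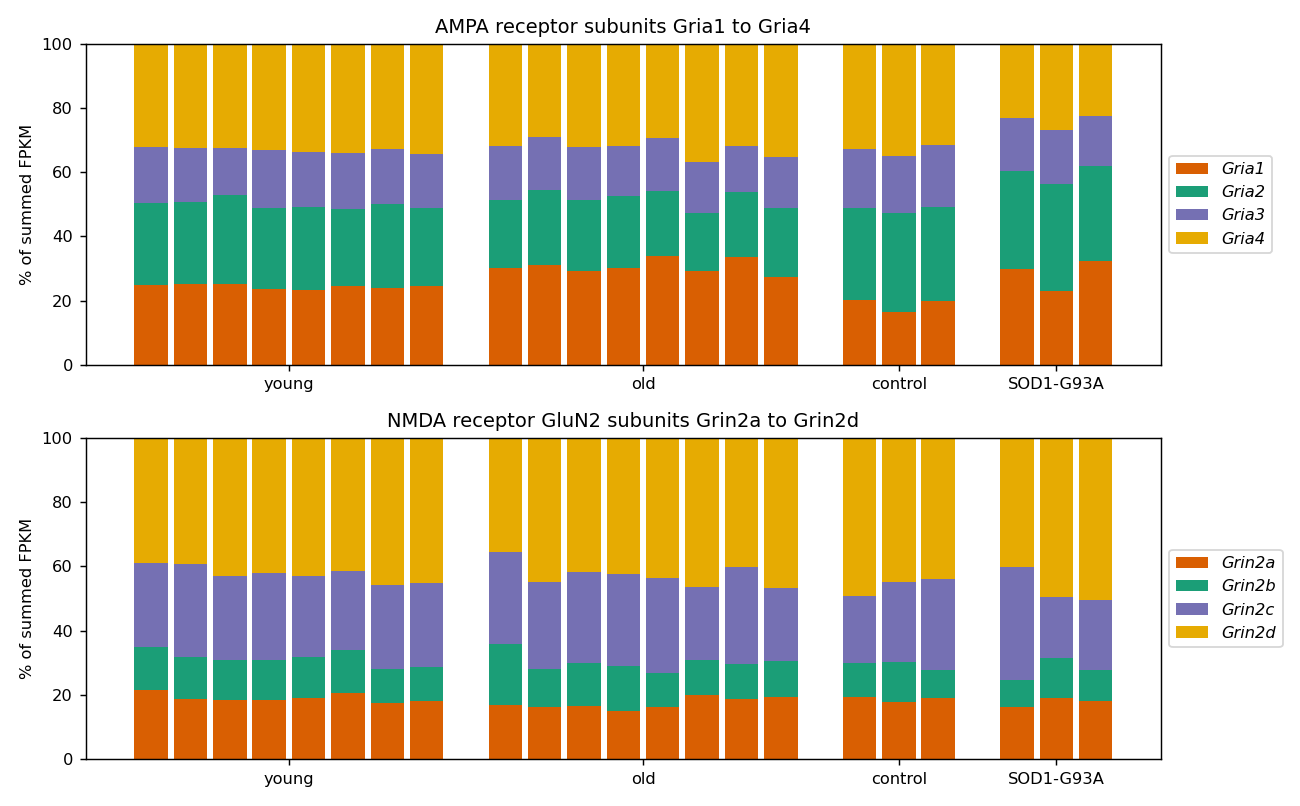
Share of each subunit in the summed FPKM, in percent, 1 bar per library, for Gria1 to Gria4 (top) and Grin2a to Grin2d (bottom). The Gria1 segment is larger in all 8 old libraries, at 27.4% to 33.9%, than in any young library, and the Grin2d segment is the largest GluN2 segment in every group mean.

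In the GluN2 mix the groups overlapped. Grin2d made up 42.4% ± 2.45 of the summed Grin2a to Grin2d FPKM in young and 42.7% ± 3.63 in old mice (SD, n = 8), and 46.0% ± 2.84 in controls and 46.7% ± 5.59 in SOD1-G93A (SD, n = 3). Grin2c held 26.3% ± 1.29, 27.3% ± 2.93, 24.7% ± 3.77 and 25.4% ± 8.52 in the same order, and the ranges of every GluN2 subunit overlapped between the groups compared. The summed GluN2 level was 19.5 ± 0.674 FPKM in old against 22 ± 1.12 in young mice, and 14.0 ± 1.6 in SOD1-G93A against 21.8 ± 0.856 in controls.

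Other ionotropic glutamate receptor genes, the kainate (Grik), delta (Grid) and Grin3b genes, were lower in 5 of 8 in old mice, with a median log2 fold change of -0.22. The kainate receptor genes Grik2 (-0.31, adjusted p = 0.00167) and Grik1 (-0.45, adjusted p = 0.0065) were among them. In SOD1-G93A mice 4 of 8 were lower, with a median of -0.38. For this list and those below, the shares over all genes tested were 12.9% lower and 13.5% higher in aging. In SOD1-G93A mice these shares were 15.5% and 18.4%. Grin3b, which encodes the GluN3B subunit known from somatic motor neurons, fell from 11.8 ± 0.946 to 3.68 ± 0.573 CPM (SD, n = 3), a log2 fold change of -1.67 (adjusted p = 0.000444), larger than that of any of the 10 members. In aging Grin3b was at 7.17 ± 1.46 CPM in young and 6.23 ± 1.18 CPM in old mice (SD, n = 8; adjusted p = 0.368).

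AMPA receptor auxiliary subunits, which bind the channel and set its gating and surface delivery, were lower in 4 of 16 with age and in 6 of 16 in SOD1-G93A mice. Cacng2, which encodes stargazin, had log2 fold changes of -0.49 in old (adjusted p = 0.00721) and -0.90 in SOD1-G93A mice (adjusted p = 0.00444). Frrs1l, an assembly factor of AMPA receptors, was at -0.26 (adjusted p = 0.00218) and -0.74 (adjusted p = 0.00791). In aging Cacng4 (-0.28, adjusted p = 0.00188) and Shisa8 (-0.33, adjusted p = 0.0465) were also lower, and in SOD1-G93A Cacng7 (-0.38, adjusted p = 0.0171) and Shisa6 (-0.39, adjusted p = 0.0255). The list medians were -0.13 and -0.33.

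Anchoring and trafficking proteins of the synapse were lower in 12 of 20 in old mice, with a median log2 fold change of -0.20. Among them were Shank2, a scaffold of the postsynaptic density (-0.38, adjusted p = 0.00017), Grip1, which binds GluA2 and GluA3 (-0.50, adjusted p = 0.000368), the AMPA-clustering pentraxin Nptx2 (-0.47, adjusted p = 0.00464) and Grip2 (-0.22, adjusted p = 0.00534). In SOD1-G93A mice 10 of 20 were lower, with a median of -0.34. The scaffold genes Shank1 (-0.58, adjusted p = 0.00388), Dlg4, which encodes PSD-95 (-0.47, adjusted p = 0.00892), and Dlg2 (-0.65, adjusted p = 0.00968) had the smallest p-values. In old mice Dlg4 had been at -0.04 (adjusted p = 0.541).

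Kinases and phosphatases that act on these receptors were lower in 2 and higher in 1 of 13 in old mice, and lower in 6 and higher in 2 of 13 in SOD1-G93A mice. The counts in old mice lay near the shares over all genes, 12.9% lower and 13.5% higher. In SOD1-G93A mice the shares were 15.5% and 18.4%. The higher gene in aging was Src, a tyrosine kinase that enhances NMDA currents, at 0.22 (adjusted p = 0.00193), and it was also higher in SOD1-G93A at 0.33 (adjusted p = 0.0195). Lower in SOD1-G93A were Ptpn5, the striatal-enriched phosphatase STEP (-0.49, adjusted p = 0.00692), Prkaca, a catalytic subunit of protein kinase A (-0.53, adjusted p = 0.00749), and Camk2b (-0.57, adjusted p = 0.0148). In aging the calcineurin subunit gene Ppp3ca (-0.23, adjusted p = 0.0099) and the kinase gene Fyn (-0.13, adjusted p = 0.0343) were lower. List medians were -0.06 and -0.25.

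Of the 3 RNA editing enzymes 2 were lower in SOD1-G93A mice. Adarb1, which encodes ADAR2, the enzyme that edits the GluA2 mRNA at the site controlling calcium entry, went from 272 ± 14.5 to 165 ± 34.9 CPM in SOD1-G93A (SD, n = 3; log2 fold change -0.72, adjusted p = 0.00616) without overlap. In aging it was at 257 ± 13.3 and 243 ± 12.3 CPM (SD, n = 8; log2 fold change -0.08, adjusted p = 0.162). Adar was at -0.36 in SOD1-G93A (adjusted p = 0.0427), and its age difference was -0.14 (adjusted p = 0.143). Editing itself cannot be read from gene counts.

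Genes of NMDA co-agonist metabolism moved in both directions. In SOD1-G93A mice 3 of 7 were lower and 2 higher. Slc7a10, a transporter of D-serine and glycine, was at 99.8 ± 10.3 CPM in controls and 45.3 ± 8.74 CPM in SOD1-G93A (SD, n = 3; log2 fold change -1.14, adjusted p = 0.000762), and Dao, which degrades D-serine, was at -1.05 (adjusted p = 0.00457). The glycine transporter gene Slc6a9 was at -0.44 (adjusted p = 0.00558) and the serine hydroxymethyltransferase gene Shmt2 at 0.61 (adjusted p = 0.00622). In old mice 2 of 7 were lower, Slc7a10 (-0.25, adjusted p = 0.000638) and the serine racemase gene Srr (-0.21, adjusted p = 0.00892), and Shmt2 was higher (0.26, adjusted p = 0.0057).

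Metabotropic glutamate receptors, which signal through G proteins, were lower in 3 of 7 tested in old mice and in 5 of 7 in SOD1-G93A mice, with medians of -0.16 and -0.72. In old mice these were Grm3 (-0.42, adjusted p = 0.00117), Grm7 (-0.24, adjusted p = 0.00209) and Grm5 (-0.34, adjusted p = 0.00663). In SOD1-G93A mice those lower included Grm4 (-0.74, adjusted p = 0.00165), Grm3 (-1.06, adjusted p = 0.00841) and Grm7 (-0.58, adjusted p = 0.0152). Over these 7 receptor-related lists, 28 genes were lower and 2 higher in aging and 36 lower and 4 higher in ALS. Over all genes tested, 12.9% were lower and 13.5% higher in aging, and 15.5% lower and 18.4% higher in ALS. The ALS count of lower genes ranged from 15, without SOD1-G93A library 3, to 47, without SOD1-G93A library 2, and was 19 without control library 2 and 23 without control library 1, control library 3 or SOD1-G93A library 1. The count of higher genes ranged from 1 to 5, with 5 without SOD1-G93A library 2, 1 without control library 2 or SOD1-G93A library 3 and 2 without control library 1, control library 3 or SOD1-G93A library 1.

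**Figure D4:**
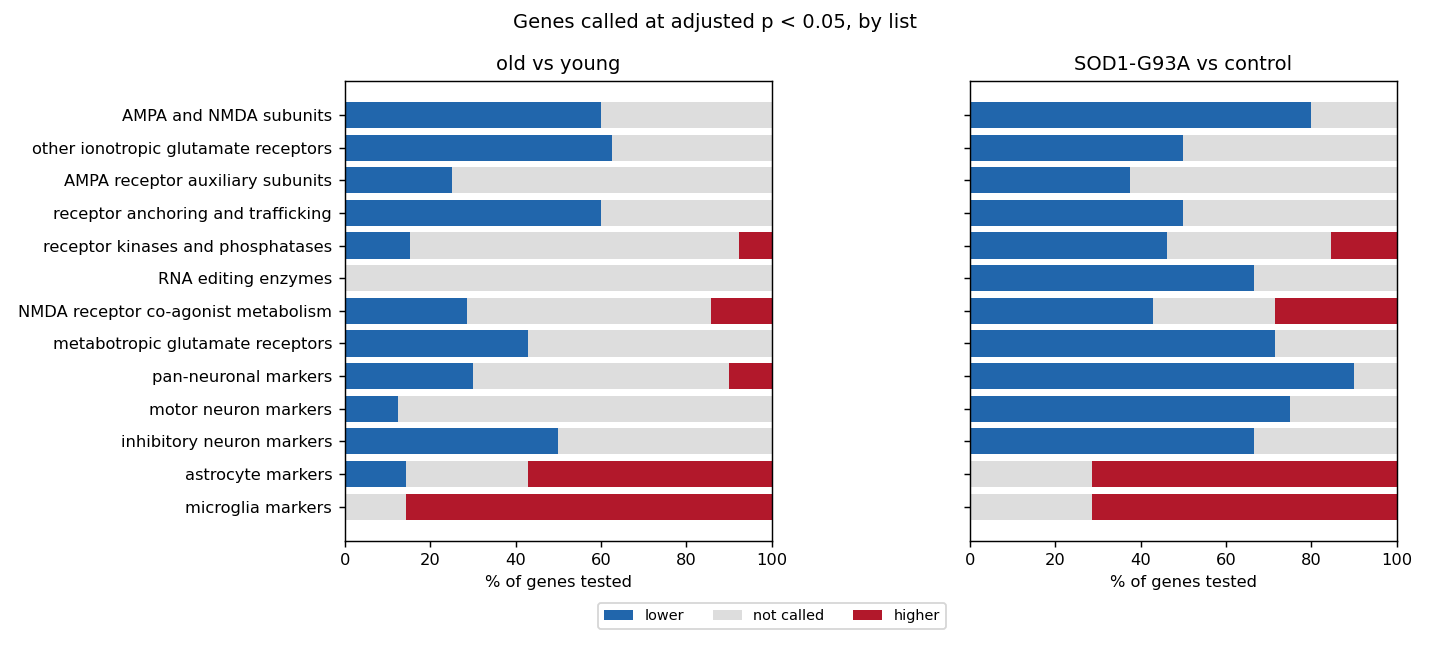
Percent of the tested genes of each list that were called lower (blue), called higher (red) or not called (grey) at an adjusted p-value under 0.05 (edgeR), in old against young (left) and SOD1-G93A against control mice (right). The AMPA and NMDA subunits are lower in 6 of 10 and 8 of 10 genes, and microglia markers are higher in 6 of 7 and 5 of 7.

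The genes whose levels over the 22 libraries most resembled those of Gria2, among 13610 genes tested in both comparisons, were Pcm1, Rab3c and Krit1. Their log2 CPM, centred on the mean of each experiment, differed from that of Gria2 by a root mean square of 0.086, 0.091 and 0.10, against 0.32 for the median gene. In old mice their log2 fold changes were -0.42, -0.42 and -0.44, and in SOD1-G93A mice -0.47, -0.60 and -0.20. For Grin2d the nearest genes were Ppip5k1, Spock2 and Ppfia3, with differences of 0.077, 0.087 and 0.091 against 0.28 for the median gene. The libraries share depth, tissue composition and scaling, so these are descriptions of likeness.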

How the data were processed

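RNA-seq libraries of whole mouse spinal cord (8 young, 8 old, 3 control, 3 SOD1-G93A) were analysed from 2 tables of 21995 genes. The authors aligned reads to mm10 with STAR and deposited expected counts from RSEM (Ensembl 88), not normalized between libraries; processing notes of the submitters also name SAMtools 1.3. The authors deposited log2(FPKM + 1) values as a second table, from which FPKM was recovered for levels and shares. The count values were whole. Per-sample columns that were left out numbered 0. Column names carry groups and no replicate numbers. No pair of libraries in a group agreed within sampling noise (smallest chi-square per degree of freedom 2.573), and labels do not say more of their independence than 1 spinal cord each, so p-values measure the spread between these libraries.

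Genes passed filterByExpr (minimum count 10, minimum total 15), libraries were scaled by TMM, and each comparison was fitted alone with the quasi-likelihood test of edgeR 4.0.16 in R 4.3.3, and p-values were adjusted by Benjamini-Hochberg across the 13647 and 14386 genes tested. Calls used an adjusted p under 0.05, and the study's added log2 fold change beyond 1 is given as an alternative. Standard errors and 95% intervals come from that fit. Symbols, positions and exon overlaps are from GENCODE M21 (GRCm38), which held 21919 of the genes, and promoters from RefSeq. Whether counting used strand is not given in the sources used here, so reads of Grin1, Grin2b, Grin2c and Grin2d cannot be told apart from those of genes on the opposite strand that overlap their exons (Grin1os and predicted Gm genes). Gria2, Gria3 and Gria4 each overlap 1 small gene on their own strand. The floor of 3 counts covers counting error only.

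Alternatives were DESeq2 1.42.0, RLE scaling, other filters, one fit of all libraries, limma 3.58.1 on log2(FPKM + 1), each library left out, and pan-neuronal scaling, added after the data were seen. Simulated counts with known changes were used to check the scripts. Members and gene lists were chosen with earlier results of these data known, so no list was tested as a set. All members are named. From each list at most 4 genes with the smallest p in either comparison are named, plus markers of cell types, and 1 gene that the rule names is not reported here. For the member with the smallest p in each comparison, the 3 genes of nearest profile over 22 libraries are named. Grin3b in aging and Dlg4 and Adarb1 in aging are given beside their ALS values.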

Additional observations from a re-analysis of the deposited data

Results flagged for a closer look

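Old library 6 stood apart from the other old libraries in 2 members. Gria4 was at 211 CPM there and at 139 to 164 CPM in the other old libraries, and Grin2a was at 65.4 CPM there and at 45.0 to 53.3 CPM in the others (Dixon's test on log2 CPM). In all, 20 groups of 8 were tested, 2 stood out, and chance alone gives about 1 in 20. The same library had the highest summed pan-neuronal level of the old group, 9270 CPM, and the lowest microglia sum, 473 CPM. Their part in the 2 values was not tested.

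In 6 members the log2 fold change in SOD1-G93A minus that in old mice differed from 0 in the edgeR interaction test. Among all 14502 genes tested, this difference was called below 0 in 2063 and above 0 in 1682. In the members it was -0.41 for Gria3, -0.68 for Gria4, -0.69 for Grin1, -0.44 for Grin2a, -0.57 for Grin2c and -0.56 for Grin2d. Grin1 was the member with no shift in aging (0) and a decrease in SOD1-G93A (-0.66).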

How the results depend on the processing

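No called member changed sign when a library was left out. Calls lost in at least 1 of these fits were those of Grin2b, Grin2c and Grin3a in ALS and of Gria3, Grin2a and Grin2c in the difference between the effects. Calls gained were those of Grin2d in aging, of Gria2 in ALS and of Grin2b and Grin3a in the difference. The number of lower members in aging was 6 and ranged from 6 to 7 with 1 library left out, and in ALS it was 8 and ranged from 5 to 8. For the receptor-related lists in ALS the count of lower genes ranged from 15 to 47 and that of higher genes from 1 to 5. With a log2 fold change beyond 1 required, the count of lower members was 0 in aging and 0 in ALS. With limma on log2(FPKM + 1) it was 5 in ALS. With libraries scaled to pan-neuronal markers, 1 member was higher in aging, where 2632 of 13647 genes were, and in ALS 0 members were lower and 2 higher. On that scale the ALS values reversed to 0.37 for Gria2, 0.06 for Gria3, 0.07 for Grin1, 0.13 for Grin2c, 0.08 for Grin2d and 0.19 for Grin3a, since the scaling shifts the median of all genes by 0.766 (0.079 in aging) and leaves 55 genes lower and 10774 higher. DESeq2, RLE scaling and both filters kept the member counts within 1.5 times. No paired analysis was possible because the table columns carry no replicate numbers. With 3 mice per group and wider intervals, members not called in ALS may still differ.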
